A study of Mus musculus with 4 samples.

Results

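The 40 genes described here encode proteins that copy DNA or make its building blocks, and all 40 were found by symbol among the 32285 features of the deposited tables. They comprised 12 genes of the replicative helicase, 4 genes that license origins, 6 genes of the sliding clamp and its loader, 3 genes of the single-strand binding protein RPA, 8 genes of the polymerases and primase, 2 genes of flap processing and ligation, and 5 genes of deoxynucleotide synthesis. Their messenger RNA was counted in single cells, captured in droplets, of the bone marrow of 4 C57BL/KawRij mice that carried 5TGM1-luc cells, a luciferase-marked mouse myeloma line injected into a vein at 6 weeks of age. At 3 weeks after the injection, 2 mice received vehicle and 2 mice received 10 mg/kg purinostat mesylate (PM), a selective inhibitor of class I and IIb histone deacetylases, and marrow was taken 24 h later with 1 library per mouse. All 4 mice carried the myeloma, so vehicle marrow is not healthy marrow, and red blood cells had been lysed before the cells were loaded. The 4 libraries held 69828595 to 109447030 unique molecular identifiers (UMIs), and 17087 vehicle and 22656 PM cells were kept, with 69 to 98 kept barcodes per library also present in another library.

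Before a cell copies its DNA, the origin recognition complex, CDC6 and CDT1 load rings of MCM proteins onto origins. In S phase these rings, together with CDC45 and the GINS proteins, unwind the double helix, RPA coats the exposed strands, primase and the polymerases synthesize new DNA on the PCNA clamp, and ribonucleotide reductase, thymidylate synthase, thymidine kinase and dUTPase keep up the supply of deoxynucleotides. Many of these genes are targets of E2F transcription factors and are transcribed around the entry into S phase, and their transcripts are therefore known as marks of dividing marrow precursors.

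The cells were sorted into types by markers, after clustering without the 40 genes, other cell cycle genes and histone genes, so that the genes reported did not define the types. There were 2243 progenitor cells (stem, multipotent and granulocyte-monocyte progenitors), 2434 early neutrophils, 888 monocyte progenitors, 181 pro-B cells, 1077 erythroid cells, 171 myeloma cells and 1628 T cells. Each name stands for cells like that type by transcripts. The progenitors include cluster 31 (347 cells), led by Prg2, Car1 and Gata2. Its second nearest marker list was that of basophils and eosinophils. When the 40 genes and cell cycle genes took part in clustering, a cluster led by Prg2, Pf4 and Gata2 was named megakaryocytes. Myeloma cells were told from other plasma cells by their clonal light chain, with Igkv10-96 leading in 158 of the 161 cells with a light chain V gene, and they held 12508 to 17777 UMIs of Ighg2b per 1000000 UMIs (counts scaled in this way are given as CPM) against 521 in all other cells, whereas the plasma cell receptor gene Tnfrsf17 was at most 1.85 CPM. In the myeloma cluster 9 of 12 plasma markers were raised, but Derl3 and Iglv1 lay below their level in all other cells. Jchain in myeloma cells had 105 and 205 CPM with vehicle and 2457 and 1106 with PM, against 719 in all other cells. The pro-B cells of the first vehicle library numbered 14 and its myeloma cells 21, and 15 of these 21 myeloma cells were called doublets.

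The promoters of 4 members that hold a match to the E2F motif are shown. Each has 300 bases, from 250 before to 50 after the transcription start, from RefSeq on GRCm38.p6. Capitals mark matches to the E2F motif in either direction, that is TTTCCCGC, TTTCGCGC, TTTGCCGC or TTTGGCGC and their reverse complements, and matches in opposite directions may overlap. All 4 lie on the plus strand: Mcm5 at chr8:75109259-75109558, Cdc6 at chr11:98907901-98908200, Orc1 at chr4:108579204-108579503 and Cdt1 at chr8:122567765-122568064.
Mcm5: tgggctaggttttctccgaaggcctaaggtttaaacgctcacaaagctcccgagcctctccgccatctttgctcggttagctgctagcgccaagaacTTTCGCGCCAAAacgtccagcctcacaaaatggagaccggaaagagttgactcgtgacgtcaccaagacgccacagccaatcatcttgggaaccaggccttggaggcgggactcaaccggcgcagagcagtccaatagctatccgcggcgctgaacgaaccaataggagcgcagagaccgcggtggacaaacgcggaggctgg
Cdc6: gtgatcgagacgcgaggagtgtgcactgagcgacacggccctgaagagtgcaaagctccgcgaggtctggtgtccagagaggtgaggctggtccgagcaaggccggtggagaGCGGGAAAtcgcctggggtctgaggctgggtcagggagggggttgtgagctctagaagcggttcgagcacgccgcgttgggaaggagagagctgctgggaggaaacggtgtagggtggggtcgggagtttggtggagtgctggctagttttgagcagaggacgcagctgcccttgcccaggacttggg
Orc1: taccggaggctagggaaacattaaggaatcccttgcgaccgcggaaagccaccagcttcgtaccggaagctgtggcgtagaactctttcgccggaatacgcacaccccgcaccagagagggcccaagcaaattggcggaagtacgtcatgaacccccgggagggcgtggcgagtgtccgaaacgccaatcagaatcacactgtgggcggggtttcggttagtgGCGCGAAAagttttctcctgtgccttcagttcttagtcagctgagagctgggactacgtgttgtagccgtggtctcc
Cdt1: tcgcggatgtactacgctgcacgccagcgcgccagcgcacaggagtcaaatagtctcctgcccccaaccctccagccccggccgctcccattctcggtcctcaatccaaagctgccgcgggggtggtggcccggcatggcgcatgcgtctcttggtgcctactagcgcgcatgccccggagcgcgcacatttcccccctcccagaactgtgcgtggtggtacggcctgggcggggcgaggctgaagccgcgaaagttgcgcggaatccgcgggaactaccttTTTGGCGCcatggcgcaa
Such windows were found for 33 of the 40 members, and 13 of these 33 (39.4%) held the E2F motif against 2.60% of the 27025 genes with a window. The windows of Pcna, Rpa2, Rrm2 and Tyms, which recur in the results, held no match and are not shown. The CCAAT box, the motif of NF-Y, was present in 63.6% of the members and 41.1% of all genes. A match describes the letters of the window and is not evidence of binding. The median log2 fold change after PM of members with and without the motif was -0.41 and -0.35 in erythroid cells (13 and 20 members), -0.18 and -0.12 in early neutrophils, 0.41 and 0.20 in pro-B cells and -0.17 and -0.076 in T cells. It was -0.049 and -0.061 in progenitors, -0.048 and -0.091 in monocyte progenitors and -0.067 and 0.0069 in myeloma cells, and no difference between the 2 sets was tested.

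The summed level of the 40 genes differed widely between the cell types. It was highest in erythroid cells, with 9086 and 10150 CPM (here member UMIs per 1000000 UMIs) in the vehicle libraries and 7034 and 8499 in the PM libraries. Monocyte progenitors had 5197 and 5144 against 4879 and 5190, and progenitors had 4725 and 4426 against 4175 and 4756. In each treatment group both libraries of monocyte progenitors exceeded both of progenitors. Pro-B cells ranged from 4508 to 6347, early neutrophils from 2649 to 2937 and myeloma cells from 2744 to 3617. T cells were low at 1287 to 1577, but above other plasma cells (355 to 564) and mature neutrophils (185 to 235). Mature neutrophils have stopped dividing. The other plasma cells include a cluster of 52 cells, at a median of 861 UMIs, with 2781 member CPM. Like the myeloma cluster, it had Eaf2, Mt2 and Rhox5 among its leading genes. Igkv10-96 led in 3 of its 6 cells with a light chain V gene. Of the 40 genes, 35 had their highest vehicle mean in erythroid cells, and 38 were higher in both erythroid than in both progenitor vehicle libraries. The median log2 ratio over all 40 genes was 0.95. The lead of erythroid cells was widest for the licensing genes Cdc6 and Orc1, with log2 ratios of 2.05 and 2.04, and near 0 for the polymerase delta subunits Pold1 and Pold2 at 0.07 each.

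**Figure D1:**
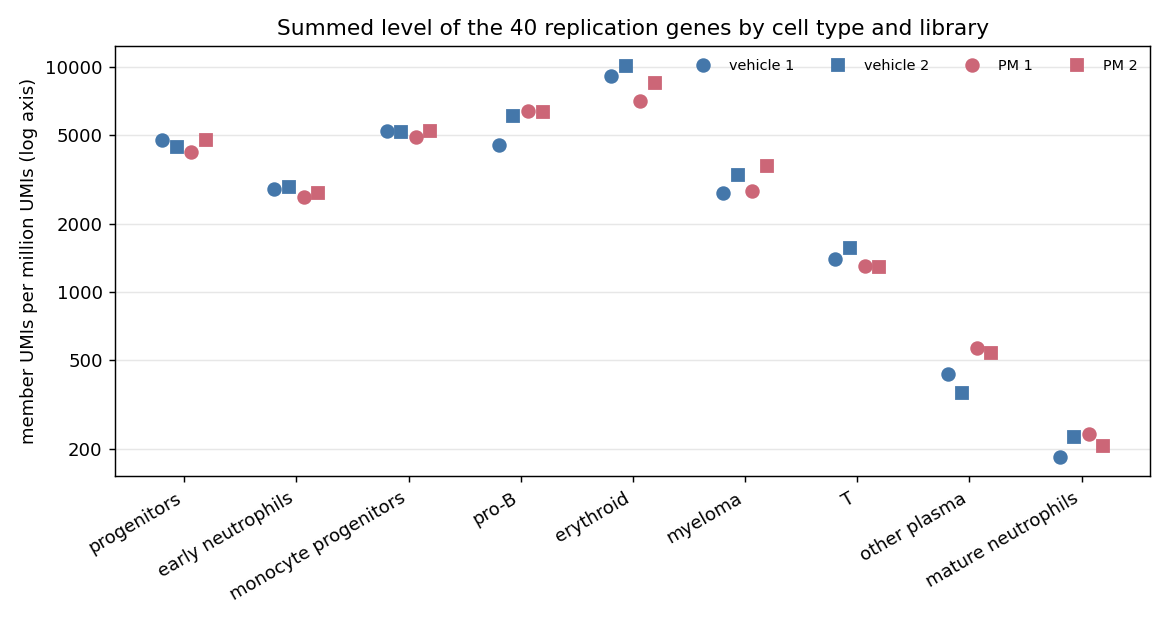
Member CPM (log axis) in each library, for the 7 cell types, for other plasma cells, and for mature neutrophils as cells that have left the cycle. Blue marks are vehicle and red marks are PM libraries; erythroid cells lie highest, at 7034 to 10150, and mature neutrophils lowest, at 185 to 235.

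The members were also counted in single cells thinned to 1000 UMIs each. The share of cells with at least 3 member UMIs was 75.8% (95% exact binomial interval 67.3 to 83.0) and 87.3% (82.5 to 91.2) of the erythroid cells in the vehicle libraries, and 74.4% (68.6 to 79.6) and 74.6% (69.3 to 79.4) in the PM libraries, after leaving out 18 and 43 vehicle and 26 and 56 PM cells that were too shallow. Early neutrophils reached 46.3% and 47.4% in the vehicle libraries and 42.8% and 42.7% in the PM libraries. Monocyte progenitors had 83.2% to 86.0%, above erythroid cells in all but the second vehicle library, and pro-B cells had 21.4% to 67.6%, below the 68.1% to 74.6% of progenitors. The share therefore did not follow the order of the summed levels, and no order is read from it. Among mature neutrophils, which should lack these transcripts, it was 0.123% to 0.560%, at a median of 2636.5 to 3749 UMIs per cell against 5606 to 14351 in erythroid cells. At least 1 member UMI was found in 16.8% to 22.1% of the thinned mature neutrophils, so they did not lack member UMIs. In erythroid cells this share was 83.9% to 92.7%. The binomial intervals cover counting error only. Fewer cells in S phase and fewer transcripts per such cell cannot be told apart in summed counts.

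To ask whether PM changed these genes, UMIs were summed per library and cell type and tested with edgeR's quasi-likelihood test, and calls required both an adjusted p under 0.05 (Benjamini-Hochberg, over all genes tested) and a log2 fold change past 0.5 in either direction. None of the 40 genes was called in any of the 7 types by edgeR or by DESeq2. With edgeR the called share of all genes was 0.245% higher and 0.0245% lower in progenitors and 2.73% and 0.41% in early neutrophils. It was 0.438% and 0.0365% in monocyte progenitors, 0.0997% and 0.157% in pro-B cells and 0.166% and 0.0195% in erythroid cells. Myeloma cells had 0.524% and 0.119% and T cells 0.0626% and 0.0626%, so that 0 of 40 was close to this background. DESeq2 called 38 higher and 9 lower of 12248 genes in progenitors and 167 and 31 of 10236 in early neutrophils. It called 61 and 6 of 10965 in monocyte progenitors, 2 and 1 of 7024 in pro-B cells and 33 and 5 of 10258 in erythroid cells. Myeloma cells had 8 and 0 of 8397, and T cells 4 and 2 of 9590. At an unadjusted p under 0.05, edgeR gave 17 lower members in erythroid cells, 7 in early neutrophils, 3 in T cells, 2 in myeloma cells and 1 each in progenitors and monocyte progenitors, and 3 higher members in pro-B cells. Of all genes tested, 4.96%, 5.91%, 4.84%, 3.64%, 3.79% and 3.71% were lower at this p in the same order, and 5.72% were higher in pro-B cells. The counts in T cells, myeloma cells, progenitors, monocyte progenitors and pro-B cells were thus near the share of all genes. DESeq2 gave 8, 4, 1, 1, 0 and 0 lower members in the same order, where 2.89%, 2.96%, 1.53%, 1.18%, 2.06% and 1.77% of all genes were lower, and 0 higher in pro-B cells, where 1.44% were. The median log2 fold change of the members was -0.40 in erythroid cells, -0.16 in early neutrophils, -0.14 in T cells, -0.06 in monocyte progenitors, -0.05 in progenitors, 0.0033 in myeloma cells and 0.21 in pro-B cells, whereas the median of all genes tested lay between -0.0030 and 0.018.

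Precision differed widely between the types. The standard errors of the members ran from 0.10 to 0.16 on the log2 scale in progenitors and from 0.28 to 0.65 in pro-B cells. In progenitors, early neutrophils and monocyte progenitors all 40 members had an estimate within 0.5 of zero, against 33 in erythroid cells, 34 of 39 in myeloma cells, 30 of 35 in T cells and 29 in pro-B cells. The genes not tested for low counts were Orc1 in myeloma cells and Gins1, Gins2, Cdc6, Orc1 and Pole in T cells, with at most 23 UMIs in any library.

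**Figure D2:**
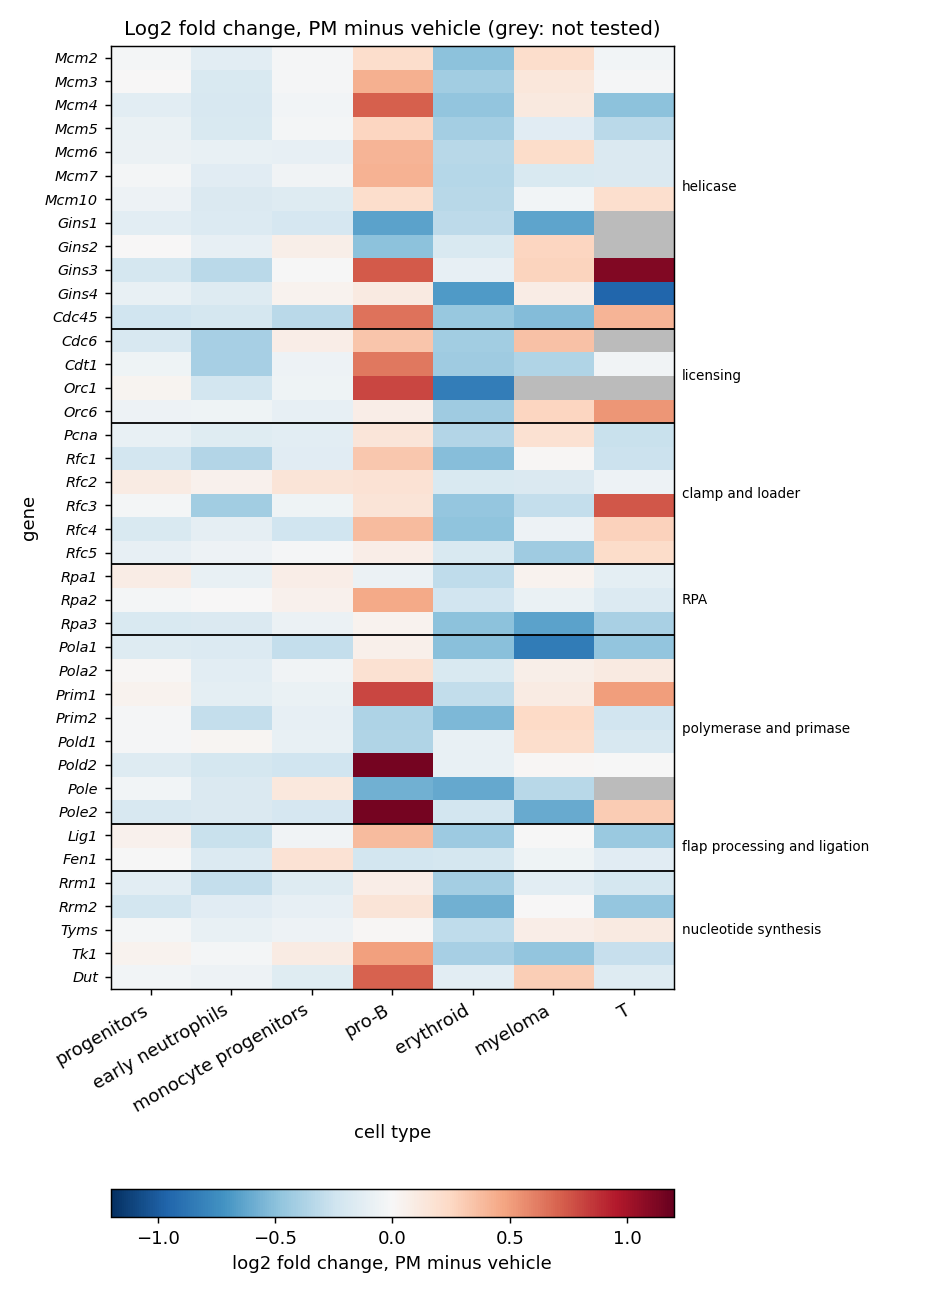
Log2 fold change (PM minus vehicle, colour) of each of the 40 genes, in rows by role, in the 7 cell types, in columns; grey cells were not tested. The erythroid column is blue for all 40 genes (median -0.40), the pro-B column is mostly red (median 0.21) and the progenitor column is pale (-0.24 to 0.10).

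The helicase genes encode the ring that opens the double helix (Mcm2 to Mcm7), its partners Cdc45 and Gins1 to Gins4, and the initiation factor Mcm10. Mcm5 had 429 and 458.98 normalized CPM in erythroid cells of vehicle mice and 296 and 371 after PM, so both PM libraries were lower (log2 fold change -0.41 ± 0.18 SE, edgeR adjusted p = 0.397). In early neutrophils it had 141 and 143 with vehicle and 128 and 122 with PM (-0.18 ± 0.10, edgeR adjusted p = 0.4004). In progenitors the 4 values were 241, 238, 214 and 239, and in monocyte progenitors 289, 279, 272 and 286, in the order of 2 vehicle and 2 PM libraries, with overlapping groups in both. The corresponding values were 157, 298, 283 and 318 in pro-B cells, 77.7, 109, 84.9 and 89.3 in myeloma cells and 47.7, 54.6, 43.1 and 38.6 in T cells, where the log2 fold changes were 0.26 ± 0.30, -0.13 ± 0.22 and -0.32 ± 0.22. As a group, all 12 helicase genes had negative estimates in early neutrophils (median -0.17) and in erythroid cells (-0.38), and 10 of 12 had positive estimates in pro-B cells (0.33). Gins4, a GINS subunit, had the most negative helicase estimate in erythroid cells, at 70.6 and 80.0 with vehicle against 43.4 and 51.1 with PM (-0.68 ± 0.18, edgeR adjusted p = 0.245).

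The licensing genes load the MCM ring before S phase. In erythroid cells Cdc6, the loading ATPase, had 219 and 239 normalized CPM with vehicle and 143 and 201 with PM (-0.42 ± 0.19, edgeR adjusted p = 0.434). In early neutrophils the values were 25.5 and 32.7 against 23.8 and 19.7 (-0.40 ± 0.16, edgeR adjusted p = 0.222). Both PM libraries lay below both vehicle libraries in each of these types. In progenitors Cdc6 stood at 55.5 and 53.4 in the vehicle libraries and at 42.3 and 53.4 in the PM libraries, with the second libraries of both groups level. The groups overlapped in monocyte progenitors (56.5, 61.5, 57.5 and 67.1) and in myeloma cells (18.6, 30.4, 25.2 and 43.9), and in pro-B cells, where the first vehicle library held none (0, 60.0, 57.6 and 68.8). Orc1, the largest subunit of the origin recognition complex, had the most negative estimate of any member in erythroid cells, at 90.5 and 79.5 with vehicle and 41.7 and 53.9 with PM (-0.83 ± 0.19, edgeR adjusted p = 0.208). The 4 licensing genes had negative estimates in early neutrophils (median -0.31) and erythroid cells (-0.43), and positive ones in pro-B cells (0.48).

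PCNA is the clamp that holds the polymerases on DNA, and the 5 RFC subunits load it. Pcna had 1145 and 1239 normalized CPM in vehicle erythroid cells and 833 and 1031 after PM (-0.36 ± 0.19, edgeR adjusted p = 0.485). Both PM libraries were also lower in early neutrophils (363 and 398 against 350 and 339, -0.14 ± 0.12), in monocyte progenitors (622 and 602 against 546 and 578, -0.12 ± 0.13) and in T cells (247 and 242 against 212 and 193, -0.27 ± 0.15). The groups overlapped in progenitors (542, 510, 465 and 524), pro-B cells (854, 1014, 1093 and 993) and myeloma cells (350, 484, 397 and 556). Pcna therefore had a negative estimate in 5 of 7 types, each within 2 standard errors of zero. Over the 6 genes of this role the median was -0.41 in erythroid cells and -0.12 in early neutrophils.

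RPA coats single-stranded DNA. Its middle subunit Rpa2 had 229 and 212 normalized CPM in vehicle erythroid cells and 171 and 205 after PM (-0.23 ± 0.17, edgeR adjusted p = 0.621). In progenitors it had 111 and 104 against 111 and 101, and in early neutrophils 32.1 and 36.6 against 36.4 and 32.2, with estimates of -0.02 ± 0.10 and 0.01 ± 0.13. Monocyte progenitors gave 109 and 106 against 110 and 112 (0.05 ± 0.12), and pro-B cells 71.2 and 142 against 163 and 178 (0.45 ± 0.32). In myeloma cells the values were 82.4, 111, 84.9 and 103, and in T cells 78.6, 41.8, 52.4 and 54.3, both with overlapping groups. Rpa2 was therefore lower in both PM libraries in erythroid cells and higher in both in monocyte progenitors and pro-B cells.

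The polymerase genes comprise polymerase alpha with its primase (Pola1, Pola2, Prim1 and Prim2), polymerase delta of the lagging strand (Pold1 and Pold2) and polymerase epsilon of the leading strand (Pole and Pole2). Pole had 40.9 and 50.7 normalized CPM in vehicle erythroid cells and 29.1 and 31.7 after PM (-0.61 ± 0.20, edgeR adjusted p = 0.284). The groups overlapped in the 5 other types in which it was tested. The values were 23.0, 26.7, 24.8 and 23.7 in progenitors, 13.7, 15.8, 13.7 and 12.1 in early neutrophils and 19.5, 28.9, 29.0 and 22.5 in monocyte progenitors. In pro-B cells they were 114, 46.0, 32.0 and 47.3 and in myeloma cells 14.0, 22.0, 14.8 and 15.2. The delta subunits differed least in erythroid cells, with -0.09 for both Pold1 and Pold2, whereas primase subunit Prim2 and Pola1 had -0.54 and -0.50. All 8 genes had negative estimates there, with a median of -0.26.

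DNA ligase I joins the fragments of the lagging strand after FEN1 has cut their flaps. Lig1 had 274 and 334 normalized CPM in vehicle erythroid cells and 200 and 251 after PM (-0.44 ± 0.18, edgeR adjusted p = 0.393). In early neutrophils it had 122 and 127 against 107 and 100 (-0.26 ± 0.10, edgeR adjusted p = 0.215), and in T cells 42.9 and 39.6 against 30.2 and 30.5 (-0.44 ± 0.24, edgeR adjusted p = 0.564). Both PM libraries were below both vehicle libraries in these 3 types. The groups overlapped in progenitors (135, 158, 151 and 152), monocyte progenitors (145, 177, 160 and 152), pro-B cells (85.4, 224, 259 and 217) and myeloma cells (49.7, 98.1, 71.3 and 83.7).

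Ribonucleotide reductase, made of RRM1 and RRM2, makes deoxynucleotides, and thymidylate synthase (Tyms) makes thymidylate. Rrm2 had 799 and 677 normalized CPM in vehicle erythroid cells and 365 and 623 after PM (-0.58 ± 0.26, edgeR adjusted p = 0.426). Here the 2 PM libraries lay further apart from each other than the second of them lay from the lower vehicle library. In T cells Rrm2 had 58.4 and 64.2 against 48.7 and 39.6 (-0.47 ± 0.21, edgeR adjusted p = 0.462). The groups overlapped in progenitors (278, 212, 186 and 236), early neutrophils (399, 382, 326 and 386), monocyte progenitors (265, 222, 214 and 242), pro-B cells (271, 340, 330 and 370) and myeloma cells (124, 151, 103 and 180). Tyms was lower in both PM libraries in erythroid cells (144 and 167 against 129 and 123, -0.30 ± 0.16, edgeR adjusted p = 0.487) and overlapped in the other 6 types. There its log2 fold change was -0.03 in progenitors, -0.09 in early neutrophils, -0.06 in monocyte progenitors, 0.01 in pro-B cells, 0.08 in myeloma cells and 0.11 in T cells. Dut, whose product dUTPase keeps uracil out of DNA, was the nucleotide gene with the highest estimate in pro-B cells (256 and 436 against 583 and 611, 0.70 ± 0.31, edgeR adjusted p = 0.390).

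Erythroid cells showed the most uniform pattern. All 40 members had a negative estimate, from -0.83 to -0.09, and 33 were lower in both PM than in both vehicle libraries, which held for 22.9% of all genes, and none was higher in both, which held for 21.8%. The smallest differences were those of Pold2, Pold1 and Gins3 (-0.09, -0.09 and -0.10). The first PM library was lowest for the fixed members Mcm5, Cdc6, Pcna, Rpa2, Pole, Lig1 and Rrm2, and leaving out the second PM library gave 1 called member, Orc1 (-1.02, edgeR adjusted p = 0.04997), among 0.572% of all genes. That fit has a lone PM library, which is assumed to vary like the vehicle pair. Without a filter on low counts, Orc1 and Gins4 were called lower, among 1.1% of all genes. A block that paired libraries of unlike number, chosen after seeing the data, called 6 members lower (Prim2, Orc1, Rfc1, Mcm2, Gins4 and Rrm2), among 3.06% of all genes. Neutrophil transcripts, which can come as free RNA, took 31065 and 12900 CPM of the erythroid cells with vehicle and 41311 and 38668 with PM. The hemoglobin genes and Alas2, which erythroid cells make themselves (5 genes), took 84572 and 35470 against 18626 and 39774. The part of these shifts in the result was not tested.

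**Figure D3:**
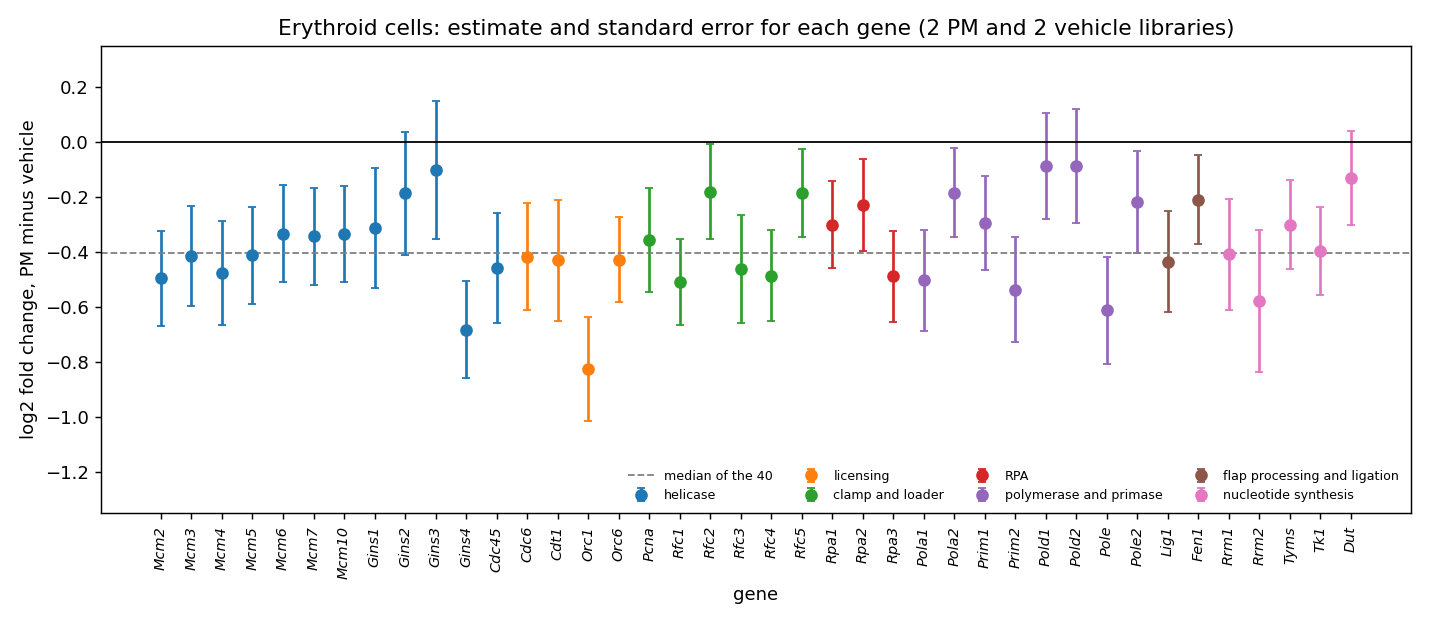
Log2 fold change (PM minus vehicle) of each of the 40 genes in erythroid cells, with the standard error of the edgeR fit as bars and roles as colours. All points lie below zero, from -0.83 (Orc1) to -0.09 (Pold2), and the dashed line marks their median of -0.40.

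The erythroid cells came from 4 clusters that differed both in member level and in share. Cluster 35, led by hemoglobin genes and Slc4a1, had 11565 and 12997 member CPM with vehicle and 11388 and 12229 with PM. Cluster 30, led by Car2 and Car1 and with a median of 1273.5 UMIs per cell, had 8222 and 9404 against 5843 and 6340, and cluster 38, led by Car1, Car2 and Ermap, had 6738 and 8284 against 7031 and 7361. The groups did not overlap in cluster 30, with a median log2 fold change of the members of -0.52. They overlapped in cluster 35 (-0.15) and cluster 38 (-0.08). No member was called in any of the 3 with edgeR. Of all genes tested, edgeR called 0 higher and 0 lower of 5092 in cluster 30. It called 32 and 7 of 7713 in cluster 35, and 14 and 4 of 9126 in cluster 38. The lack of called members was thus near this background. The small cluster 43, led by hemoglobin genes and Alas2, held 1246 and 1297 against 1004 and 714, and 5 members could be tested in it. At an unadjusted p under 0.05, 10 of 37 tested members were lower in cluster 30, 2 in cluster 35 and 1 in cluster 38, where 2.32%, 3.1% and 1.67% of all genes were, and none was higher. Both PM libraries were below both vehicle libraries for 26 of 37 members in cluster 30, 15 of 40 in cluster 35 and 7 of 40 in cluster 38. This held for 17.3%, 19% and 16.5% of all genes, so the count in cluster 38 was near that share. In cluster 43 it was 1 of 5 members, against 29.4% of all genes. Cluster 35, the richest in member transcripts, made up 39.4% and 30.6% of the erythroid cells with vehicle and 13.4% and 27.0% with PM. Cluster 38 made up 40.5% of the erythroid cells in the first PM library and 10.6% to 19.1% in the other libraries. Weighting the 4 clusters equally gave 6943 and 7995 with vehicle and 6317 and 6661 with PM. Both PM libraries were lower in this mean, by less than in the pooled sums. The mean weights the shallow clusters 30 and 43 (median 1273.5 and 4246.5 UMIs per cell) like clusters 35 and 38 (16267 and 32527). In clusters 35 and 38 the groups overlapped, so the mean does not show a lower level within every cluster. Orc1 was lower in both PM libraries within cluster 35 (122 and 114 against 74.1 and 75.8 CPM) and overlapped in cluster 38 (37.2 and 54.6 against 42.0 and 49.2).

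In early neutrophils, the granulocyte precursors that still divide, the summed member level was lower in both PM libraries in all cells and in each of 2 clusters. The median log2 fold change of the members was -0.16 in all cells, -0.35 in cluster 9 and -0.16 in cluster 19. In the sum, 37 of 40 members had a negative estimate. Both PM libraries were lower for 18 members, against 22.3% of all genes, and higher for none, against 24.7%. The smallest differences were those of Rpa2, Pold1 and Tk1 (0.01, 0.02 and -0.02). Cluster 9, led by Chil3 and Camp, had 2374 and 2505 member CPM with vehicle and 2037 and 2026 with PM. Its mean log2 marker ratio to all other cells was 0.53 for early and 0.56 for immature neutrophils, so its name as early is a near tie. Cluster 19, led by Fcnb and Chil3, had 4071 and 3914 against 3406 and 3641. Both PM libraries were thus lower in each cluster, while the member-rich cluster 19 made up 25.4% and 28.1% of the early neutrophils with vehicle and 40.5% in both PM libraries. With the clusters weighted equally, the vehicle libraries had 3222 and 3210 and the PM libraries 2722 and 2834.

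**Figure D4:**
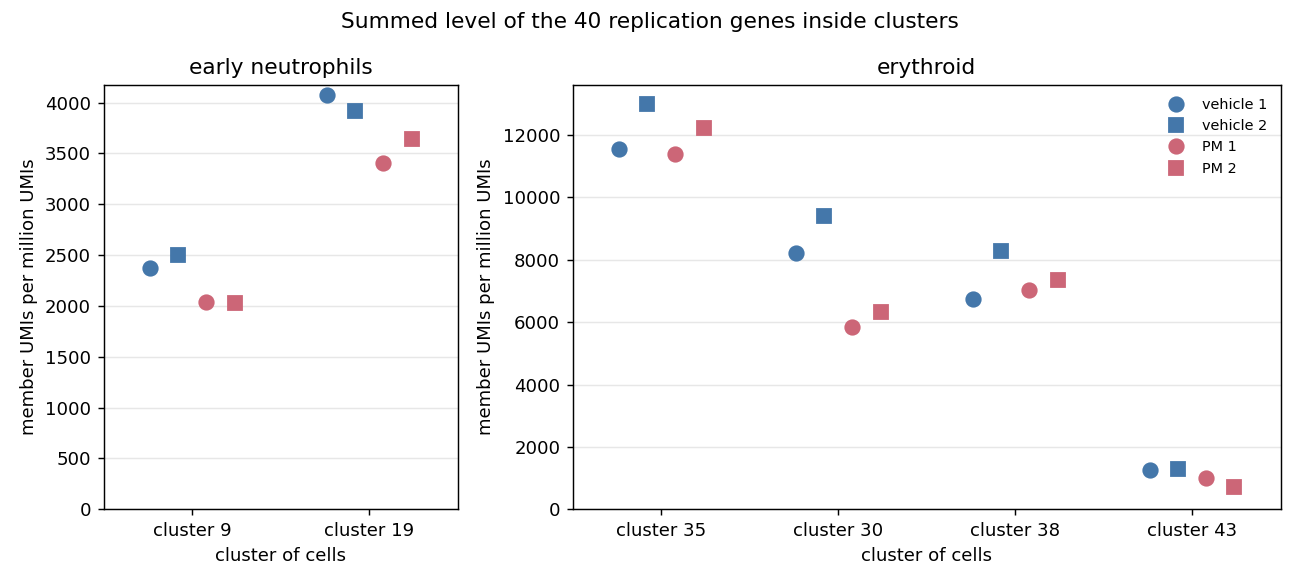
Member CPM in each library within the 2 clusters of early neutrophils and the 4 clusters of erythroid cells (linear axes from zero). Vehicle (blue) and PM (red) libraries do not overlap in clusters 9, 19, 30 and 43, and overlap in clusters 35 and 38.

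Within cluster 9 alone, a split chosen after the data had been seen, 39 of 40 members had a negative estimate, 30 were lower in both PM libraries against 22.1% of all genes, and 2 were called lower, among 0.572% of all genes. Cdt1, the licensing factor that delivers the MCM ring, had 33.8 and 41.2 CPM with vehicle and 21.7 and 20.2 with PM (log2 fold change -0.89, edgeR adjusted p = 0.00334). Lig1 had 101 and 103 against 77.1 and 65.4 (-0.57, edgeR adjusted p = 0.0176). Within cluster 19, Cdc6 had 49.8 and 60.0 against 39.8 and 32.7 (-0.57, edgeR adjusted p = 0.132). No member was called there, where edgeR called 98 higher and 41 lower of all 9188 genes tested. Across both clusters Rrm2 differed less, at 370 and 355 against 286 and 355 in cluster 9 and 458 and 393 against 355 and 485 in cluster 19.

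Progenitors and monocyte progenitors carried high and precisely measured levels, with small differences in the sums over all cells of each type. In progenitors 12 members were lower and 2 higher in both PM libraries, where 19.4% and 21.9% of all genes were, and in monocyte progenitors 14 and 3, where 19.8% and 21.9% were. The member with the smallest p was the loader subunit Rfc1 in progenitors (131 and 135 against 113 and 115, -0.22 ± 0.10, edgeR adjusted p = 0.505) and Cdc45 in monocyte progenitors (86.7 and 72.3 against 67.5 and 59.9, -0.32 ± 0.14, edgeR adjusted p = 0.436). The smallest differences in progenitors were those of Fen1, Mcm3 and Gins2 (-0.0018, 0.0027 and 0.0064), and in monocyte progenitors those of Gins3, Mcm2 and Rfc5 (-0.0065, -0.011 and -0.012). Mcm3 in progenitors, for example, had 223 and 223 normalized CPM with vehicle and 213 and 235 with PM. The progenitor clusters did not share 1 direction. The median log2 fold change was -0.089, -0.060 and -0.059 in clusters 21, 23 and 25. In cluster 31 (347 cells) it was 0.13, with 31 positive and 9 negative estimates. Its member level was 4182 and 4016 CPM with vehicle and 4438 and 4669 with PM. At an unadjusted p under 0.05, edgeR gave 4 higher members there, where 2.61% of all genes were higher.

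Pro-B cells went the other way in their estimates. In them 33 of 40 members had a positive estimate and 17 were higher in both PM libraries, against 24.7% of all genes, whereas 3 were lower in both, against 21.7%. Pold2 had 28.5 and 39.99 normalized CPM with vehicle and 89.6 and 79.5 with PM (1.15 ± 0.40, edgeR adjusted p = 0.241). Mcm4 had 42.7 and 118 against 176 and 155 (0.71 ± 0.34, edgeR adjusted p = 0.435). The smallest differences were those of Tyms, Rpa3 and Pola1 (0.01, 0.04 and 0.06). The first vehicle library held 14 pro-B cells with 66555 UMIs and had the lowest Mcm5, Pcna, Rpa2, Lig1, Rrm2 and Tyms values, and Cdc6 and Prim1 were at 0 in it, so its level is loosely known. Leaving out the second vehicle library, which leaves those 14 cells as the vehicle group and takes the spread from the PM pair, gave 5 called members (Dut, Mcm7, Lig1, Prim1 and Mcm4, all higher) among 3.54% of all genes. Coarser clusters (resolution 1) or the addition of pre-B and immature B cells gave 3 called members each (Dut, Orc1 and Pold2, all higher). The shares of all genes were 5.53% and 5.65%, near the 3 of 40. With the addition, the sets held 84 and 499 cells with vehicle and 177 and 126 with PM. Pro-B cells were 14 and 62 of these with vehicle and 67 and 38 with PM. The mix of cells thus differed between the groups, and its part in these calls was not tested. When the members and cell cycle genes took part in the clustering, 22 members had a positive and 18 a negative estimate, with a median of 0.04 in place of 0.21. Called doublets made up 1 of 14 and 13 of 62 pro-B cells with vehicle, and 26 of 67 and 4 of 38 with PM. With these removed, 35 members were tested, of which 23 had a positive and 12 a negative estimate, with a median of 0.15. Other transcripts of the pro-B cells moved as well. Of 10 pro-B markers, 8 were lower in both PM libraries, among them Dntt, the terminal transferase of early B cells (1548 and 1202 against 360 and 256 CPM), and neutrophil transcripts took 25212 and 29251 CPM against 11591 and 16463. Their part in the result was not tested.

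Myeloma cells showed no common direction for the replication genes, with 20 positive and 19 negative estimates. The split was 8 to 31 without the first vehicle library, 27 to 12 without the second, 23 to 16 without the first PM library and 11 to 28 without the second. The 4 libraries held 2744, 3329, 2813 and 3617 member CPM, and 6 members were lower and 2 higher in both PM libraries, where 18.1% and 19.1% of all genes were. Rpa3, the small RPA subunit, had 166 and 133 normalized CPM with vehicle and 87.2 and 104 with PM (-0.64 ± 0.21, edgeR adjusted p = 0.219). Pola1, the catalytic subunit of polymerase alpha, had 35.7 and 39.7 against 22.6 and 19.1 (-0.84 ± 0.29, edgeR adjusted p = 0.261). The smallest differences were those of Lig1, Rrm2 and Pold2 (-0.0032, 0.0033 and 0.01). Genes of G2 and mitosis differed more in the same cells, with a median of -0.58 and 50 of 52 tested genes negative. Called lower were 3 of them, where 0.119% of all genes were. These were Cdca3, a cell division gene (138 and 124 against 75.5 and 62.2, -0.91 ± 0.21, edgeR adjusted p = 0.0321), Cenpe, a kinetochore motor (124 and 116 against 74.9 and 50.2, -0.90 ± 0.22, edgeR adjusted p = 0.0434), and Cenpf, a kinetochore protein (204 and 198 against 131 and 95.7, -0.80 ± 0.20, edgeR adjusted p = 0.0496). DESeq2 called none of these 3, and of all 8397 genes tested in these cells it called 8 higher and 0 lower. The summed G2 and mitosis level in myeloma cells was 7693 and 7697 CPM with vehicle and 5613 and 5296 with PM. Neutrophil transcripts in these cells were 1311 and 4141 CPM with vehicle and 14644 and 1638 with PM. Called doublets made up 15 of 21 and 0 of 27 myeloma cells with vehicle, and 23 of 92 and 0 of 31 with PM. The part of these transcripts and doublets in the result was not tested.

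T cells had the lowest summed member level of the 7 types. Of 35 tested members, 24 had a negative estimate, 8 were lower and 3 higher in both PM libraries, where 20.4% and 21% of all genes were. Gins4 had 32.2 and 26.8 normalized CPM with vehicle and 16.6 and 13.3 with PM (-0.96 ± 0.31, edgeR adjusted p = 0.268), from 27, 25, 50 and 28 UMIs. The smallest differences were those of Pold2, Mcm3 and Mcm2 (-0.0069, -0.011 and -0.04). Cluster 29, led by Cd8b1 and Tcf7, made up 1.88% and 10.1% of the T cells with vehicle and 32.9% and 27.3% with PM. Its member level in the PM libraries was 1030 and 966 CPM, below the 1251 and 1105 of cluster 18, led by Ccl5 and Il2rb. In the vehicle libraries the order was the opposite, with 5526 and 1848 in cluster 29, from 4 and 21 cells, against 1237 and 1223. The sum of T cells thus held a different mix after PM, and the part of this mix in the result was not tested.

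Whether the PM effect on a member differed between the 7 types was tested in 1 fit over all 28 sums. Each of the 4 mice gave 7 of these sums, and the mouse was a block in the fit. With edgeR, 1 of the 40 members passed at an adjusted p under 0.05, where 5.04% of all genes passed. This was Gins4 (edgeR adjusted p = 0.0346), whose log2 fold change was -0.96 in T cells and -0.68 in erythroid cells, against -0.16 in early neutrophils, -0.09 in progenitors, 0.05 in monocyte progenitors, 0.09 in myeloma cells and 0.11 in pro-B cells. No member passed with a stricter filter on cells (500 genes and 10% mitochondrial UMIs), without the first vehicle library or without the first PM library, where 5.11%, 1.05% and 1.61% of all genes passed. Next in order of p were Mcm3, Cdt1, Mcm6 and Mcm2 with edgeR adjusted p-values of 0.0710, 0.0794, 0.104 and 0.109. Against progenitors alone, no member differed in any of the 6 other types by edgeR in this fit, where 0.435% of all genes differed in early neutrophils, 0.0749% in monocyte progenitors, 0.854% in pro-B cells, 0.989% in erythroid cells, 0.135% in myeloma cells and 0.12% in T cells. The nearest were Orc1 in erythroid cells, with a difference of log2 fold changes of -0.85 ± 0.24 (edgeR adjusted p = 0.0700), and Gins4 there, with -0.56 ± 0.17 (edgeR adjusted p = 0.0987). The uniform direction in erythroid cells is therefore described from the libraries and was not shown gene by gene to differ from progenitors.

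For other genes of the cell cycle the lists were described in the same way. Among 64 other replication genes and 24 regulators of the G1/S transition, none was called by edgeR in any of the 7 types, and among 54 genes of G2 and mitosis the 3 in myeloma cells were the called ones. The median log2 fold change of the other replication genes was -0.20 in erythroid cells, -0.11 in early neutrophils and 0.29 in pro-B cells. That of the G1/S regulators was -0.37 in erythroid cells and 0.04 in pro-B cells (11 positive and 10 negative). That of G2 and mitosis was -0.40 in erythroid cells (51 of 54 negative) and -0.17 in monocyte progenitors (51 of 54 negative). It was -0.04 in early neutrophils and -0.07 in pro-B cells (21 positive and 33 negative).

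E2f1, Cdkn1a, Mki67 and Top2a were followed in every type, and the smallest edgeR adjusted p among them was 0.200. Cdkn1a, which encodes the cell cycle inhibitor p21, had 20.5 and 18.2 normalized CPM with vehicle and 23.4 and 39.6 with PM in early neutrophils (0.68 ± 0.24, edgeR adjusted p = 0.200). In erythroid cells it had 4.09 and 2.79 against 7.07 and 9.13 (1.31 ± 0.41, edgeR adjusted p = 0.277), whereas in monocyte progenitors it had 25.7 and 32.2 against 20.9 and 18.1 (-0.55 ± 0.18, edgeR adjusted p = 0.270). Its log2 fold change was -0.35 in progenitors, -0.35 in pro-B cells, 0.37 in myeloma cells and -0.65 in T cells. E2f1, an activator of replication genes, had 78.8 and 92.7 against 52.0 and 69.2 in erythroid cells (-0.51 ± 0.19, edgeR adjusted p = 0.355), and between -0.30 and 0.32 in the other types. Mki67, a marker of cycling cells, was lower in both PM libraries in progenitors (-0.20), early neutrophils (-0.15), monocyte progenitors (-0.21), erythroid cells (-0.53) and myeloma cells (-0.58), none of them called. Top2a, the topoisomerase of dividing cells, had -0.35 in erythroid cells, -0.59 in myeloma cells, -0.42 in T cells, -0.30 in monocyte progenitors, -0.13 in early neutrophils, -0.09 in progenitors and 0.06 in pro-B cells.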

How the data were processed

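The authors deposited raw counts, that is UMIs per gene and cell barcode from 10x 3' libraries, with no normalization. Per the file headers they used Cell Ranger 6.0.1; the study's methods name a GRCm38 reference, whereas the submitters' processing notes list GRCm39, and gene symbols were used as deposited. Per library, 69828595 to 109447030 UMIs were deposited.

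Cells were kept at 300 or more genes and no more than 20% mitochondrial UMIs, as the study did. Clustering (scanpy 1.11.5, leidenalg 0.10.2, 2500 variable genes, 30 principal components, 15 neighbors, resolution 2, no integration) left out 284 genes, namely the 40 members, other cell cycle genes and histone genes. Clusters were named from marker lists, and 4 stayed unnamed. Cluster 9 scored slightly higher for immature than for early neutrophils, within a tie margin of 0.1. It was counted as early because more early markers were among its leading genes. Doublets, called from simulated doublets at an expected 0.8% per 1000 cells (5.62% to 10.3% of cells, with 50.7% to 63.6% of simulated doublets recovered), were kept.

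UMIs were summed per library and type and tested by robust quasi-likelihood in edgeR 4.0.16 after TMM scaling and filterByExpr (R 4.3.3), with DESeq2 1.42.0 as an alternative. Normalized CPM are TMM-scaled within a type, and other CPM are plain shares of all UMIs. With 2 mice a group, an exact permutation test cannot give p below 0.333, and none was used. No source says that equal replicate numbers mark mice handled together, and same-numbered libraries did not deviate together (correlations -0.35 to 0.06).

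The members, lists and markers were chosen with earlier results of these data known. Named in each type were 8 fixed members, called members, the 3 smallest differences, and E2f1, Cdkn1a, Mki67 and Top2a. Gins4, Orc1, Dut, Mcm4, Rfc1, Cdc45, Rpa3, Pola1, Prim2 and Pold2 were added after their values were seen.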

Additional observations from a re-analysis of the deposited data

Results flagged for a closer look

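The effect of PM on Gins4, a subunit of the GINS complex of the helicase, differed between the 7 cell types in the test of the difference itself (edgeR adjusted p = 0.0346). Its log2 fold change was -0.96 in T cells, where both PM libraries were lower than both vehicle libraries on 27, 25, 50 and 28 UMIs, and -0.68 in erythroid cells, where the same held on 121, 372, 227 and 224 UMIs. It lay between -0.16 and 0.11 in the other 5 types. It was the 1 member among 40 to pass, where 5.04% of all genes passed, and the call was lost with a stricter filter on cells, without the first vehicle library and without the first PM library. Within the erythroid clusters, Gins4 had 54.7 and 66.9 CPM with vehicle and 35.2 and 36.2 with PM in cluster 30, 90.02 and 91.7 against 77.8 and 76.5 in cluster 35, and 42.8 and 73.7 against 43.6 and 45.6 in cluster 38. The groups overlapped in cluster 38 and not in the other 2.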

How the results depend on the processing

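The replicate block called 0 members in every type, as the fit without it did. Of all genes tested, it called 38 higher and 4 lower of 12248 in progenitors and 400 and 65 of 10236 in early neutrophils. It called 28 and 1 of 10965 in monocyte progenitors, 23 and 45 of 7024 in pro-B cells and 21 and 2 of 10258 in erythroid cells. Myeloma cells had 40 and 7 of 8397, and T cells 85 and 85 of 9590. Counts of called members moved in pro-B cells and in erythroid cells. In pro-B cells 3 were called higher at resolution 1, where 5.53% of all genes were. With pre-B cells added 3 were called higher, where 5.65% of all genes were. Both pro-B counts were near the share of all genes. Without the filter on low counts, where 1.1% of all genes were called lower, the count in erythroid cells was 2 members. Leaving out 1 library gave 0 to 5 in pro-B cells, with the 5 without the second vehicle library, and 0 to 1 in erythroid cells. Same-numbered libraries correlated negatively in several types. A crossed pairing, chosen after seeing the data, called 6 members in erythroid cells, among 314 lower genes (3.06% of all genes), and 0 in the other types. There it called 51 higher and 19 lower of 12248 genes in progenitors and 428 and 75 of 10236 in early neutrophils. Monocyte progenitors had 81 and 9 of 10965, and pro-B cells 58 and 66 of 7024. Myeloma cells had 136 and 43 of 8397, and T cells 103 and 113 of 9590. In cluster 9 alone 2 members were called lower, where 0.572% of all genes were.

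Members whose effect differed between all types numbered 9 without the filter (9.08% of all genes), 7 at resolution 1 (10.2%), 3 when members and cell cycle genes took part in clustering (6.9%, near the 3 of 40), 0 with a filter of 500 genes and 10% mitochondrial UMIs (5.11%), and 0 to 5 when 1 library was left out (0 without the first vehicle or the first PM library, 1.05% and 1.61%; 2 without the second vehicle library, 4.53%; 5 without the second PM library, 6.85%). Against progenitors, pro-B cells gave 2 at resolution 1 (7.11% of all genes) and 0 to 2 with 1 library left out (2 without the second vehicle library, 1.65%), and erythroid cells 1 without the filter (2.94%).

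The median log2 fold change with 1 library left out ran from -0.10 to -0.044 in progenitors, from -0.23 to -0.084 in early neutrophils, from -0.51 to -0.24 in erythroid cells, from 0.11 to 0.95 in pro-B cells, from -0.16 to 0.16 in myeloma cells, from -0.076 to -0.033 in monocyte progenitors and from -0.23 to 0.10 in T cells. In T cells it was -0.30 when members took part in clustering, -0.037 in cluster 18 alone and 0.19 in cluster 32 alone. In pro-B cells it was 0.04 when members took part in clustering and 0.15 without doublets, and in monocyte progenitors -0.019 without doublets. In early neutrophils it was -0.10 with wider types, -0.35 in cluster 9 and -0.16 in cluster 19, in progenitor cluster 31 it was 0.13, and in erythroid clusters 30, 35, 38 and 43 it was -0.52, -0.15, -0.076 and -0.49. Of 4111 member estimates under the alternatives, 382 had the opposite sign. The cause was not tested. Cdca3, Cenpe and Cenpf in myeloma cells were not called by DESeq2, without either vehicle library or without the second PM library, and Cenpf not with the replicate block. Of all 8397 genes tested in myeloma cells, DESeq2 called 0 lower. Removing doublets left 6 myeloma cells in the first vehicle library, so that fit was not run. Pro-B and myeloma cells had the fewest UMIs, which limits the precision there.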
